A study of Mus musculus with 9 samples.

Results

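The Gimap genes encode GTPases of immune-associated proteins, a family of small guanine-nucleotide binding proteins found mainly in lymphocytes, and lie side by side on mouse chromosome 6. The 9 members described here, Gimap1, Gimap1os, Gimap3, Gimap4, Gimap5, Gimap6, Gimap7, Gimap8 and Gimap9, were taken by symbol from the 20732 genes of the deposited count table, and all 9 passed the filter on low counts, as did 14405 genes in all. They were proposed as a group with the change between the treatment groups already known, so the values of that change are given below as a description, with standard errors and without a test.

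The RNA was that of sorted pancreatic ILC2s (group 2 innate lymphoid cells), which lack antigen receptors, reside in tissues and secrete type 2 cytokines. C57BL6/J mice were injected with PBS or with 200 ng of IL-33, an alarmin that activates ILC2s through the receptor ST2, on days 0 and 1, and tissue was taken on day 5. All libraries shared the sort for live cells with CD45 and KLRG1 and without CD3, B220 and lineage markers. The sample labels give 4 PBS libraries (titled naïve) and 5 IL-33 libraries, whereas by the series text the mice were 5 with PBS and 4 with IL-33; the sample labels were followed. Neither the age of the mice nor whether each library came from a separate mouse is stated in the labels, so the spread given here is that between libraries.

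GIMAP proteins bind GTP through a domain of the AIG1 type and sit on the membranes of lysosomes, the endoplasmic reticulum, mitochondria and other compartments. Resting T and B lymphocytes depend on several of them for survival: loss of GIMAP5 leads to lymphopenia in mice and rats, loss of GIMAP1 depletes mature T and B cells, and GIMAP6 binds a protein of the autophagy machinery. In T cells, levels of several family members are known to change with activation and with T helper polarisation.

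The cluster ran from Gimap8 to Gimap3 over 123618 bases of chromosome 6 (chr6:48647234-48770851, GRCm38, GENCODE M21). In order along the chromosome came Gimap8 (48647234 to 48660875, plus strand), Gimap9 (48676129 to 48679114, plus), Gimap4 (48684549 to 48692060, plus), Gimap6 (48701582 to 48708225, minus), Gimap7 (48718621 to 48724636, plus), Gimap1os (48738346 to 48741444, minus), Gimap1 (48739054 to 48743795, plus), Gimap5 (48746197 to 48754210, plus) and Gimap3 (48764464 to 48770851, minus). Gimap1os, a non-coding transcript, is annotated across the start of Gimap1, and 1107 bases of its exons overlap exons of Gimap1 on the opposite strand. No source used here says that the libraries kept strand, and reads in that stretch cannot be told apart between them. A read-through model, Gm28053, shares 81 to 198 exon bases with Gimap7, Gimap1 and Gimap5 and did not pass the filter.

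The 8 coding members share the P-loop, the stretch that holds the phosphates of GTP. It was located in the longest annotated coding sequence of each gene as glycine, 4 residues of any kind, glycine, lysine and then serine or threonine. The coding DNA around each match is shown 5′ to 3′ on the gene's strand (GRCm38), because it shows how near 2 of the members are to each other; capitals mark the codons of the fixed residues.
Gimap8, first match (chr6:48650244-48650291, plus strand): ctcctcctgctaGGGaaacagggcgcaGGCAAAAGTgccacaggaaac
Gimap8, middle match (chr6:48656107-48656154, plus strand): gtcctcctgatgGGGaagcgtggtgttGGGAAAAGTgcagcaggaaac
Gimap8, last match (chr6:48658734-48658781, plus strand): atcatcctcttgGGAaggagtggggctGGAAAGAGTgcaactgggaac
Gimap9 (chr6:48677511-48677558, plus strand): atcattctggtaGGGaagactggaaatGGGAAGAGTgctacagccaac
Gimap4 (chr6:48690409-48690456, plus strand): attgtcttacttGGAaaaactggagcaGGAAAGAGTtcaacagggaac
Gimap6 (chr6:48702738-48702785, minus strand): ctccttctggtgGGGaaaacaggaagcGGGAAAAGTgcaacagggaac
Gimap7 (chr6:48723512-48723559, plus strand): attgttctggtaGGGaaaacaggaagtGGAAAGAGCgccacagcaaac
Gimap1 (chr6:48742540-48742587, plus strand): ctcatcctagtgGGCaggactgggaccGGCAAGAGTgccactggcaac
Gimap5 (chr6:48752582-48752629, plus strand): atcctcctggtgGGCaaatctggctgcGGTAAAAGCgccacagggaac
Gimap3 (chr6:48765875-48765922, minus strand): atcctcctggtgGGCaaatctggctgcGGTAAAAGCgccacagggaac

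Gimap8 held 3 matches and each other coding member 1. Gimap3 and Gimap5, neighbours that face each other at the end of the cluster, had the same 48 bases there. Over 895 aligned coding bases they were 90.7% identical, against 57.9% to 68.8% for other pairs that do not include Gimap8. Of all stretches of 31 bases in annotated transcripts, 335 were common to Gimap3 and Gimap5, which is 13.2% of those of Gimap3 and 8.02% of those of Gimap5. How the authors' counting dealt with reads from such stretches is not given in the sources used here, so part of the counts of this pair is uncertain.

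Total counts per library lay between 14216976 and 21020023. PBS replicate 4 stood apart through RNA of acinar cells, the enzyme-making cells of the pancreas: genes of an acinar list took 31.6% of its counts and 0.0971% to 8.91% of those of the other libraries. Its scaling factor was 0.532, against 0.990 to 1.17 elsewhere. Levels below are CPM, counts relative to the library total as scaled by TMM, which allows for this factor, and values without that library are given where leaving it out moved a value by over 1.5 times or ended a call. Among the markers of the sorted cells, Gata3 was at 4518 ± 579 CPM with PBS (SD, n = 4) and 4030 ± 1586 CPM with IL-33 (SD, n = 5). Il1rl1, which encodes ST2, was at 1181 ± 199 and 865 ± 157 CPM, Klrg1 at 709 ± 81.9 and 1429 ± 200.0 CPM, and Il7r at 652 ± 140 and 269 ± 67.4 CPM.

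As a sum, the 9 members took 2495, 2567, 2295 and 1764 CPM in PBS replicates 1 to 4 and 927, 842, 1456, 999 and 958 CPM in IL-33 replicates 1 to 5. The groups did not overlap, the lowest PBS library lying above the highest IL-33 library. The means were 2280 ± 363 CPM (SD, n = 4) and 1037 ± 241 CPM (SD, n = 5), 2.20 times as high with PBS. In bulk RNA, fewer cells that carry a transcript and less of it per cell cannot be told apart.

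The members differed in the size of their change. Fitted log2 changes (IL-33 over PBS) ran from -2.57 for Gimap3 to 0.28 for Gimap7, with a median of -1.15 over the 9 members and -0.05 over all 14405 genes tested. For 8 members the change was below 0, as for 7520 of all genes. The groups did not overlap for 5 members (Gimap3, Gimap5, Gimap6, Gimap8 and Gimap1os), each lower with IL-33; among all genes tested 10.8% were lower without overlap, a share given for scale only because the members were chosen on this contrast. Tested genes with an exon length within the range of the members (1642 to 4149 bases, 4609 genes) had a median log2 change of 0.03.

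**Figure D1:**
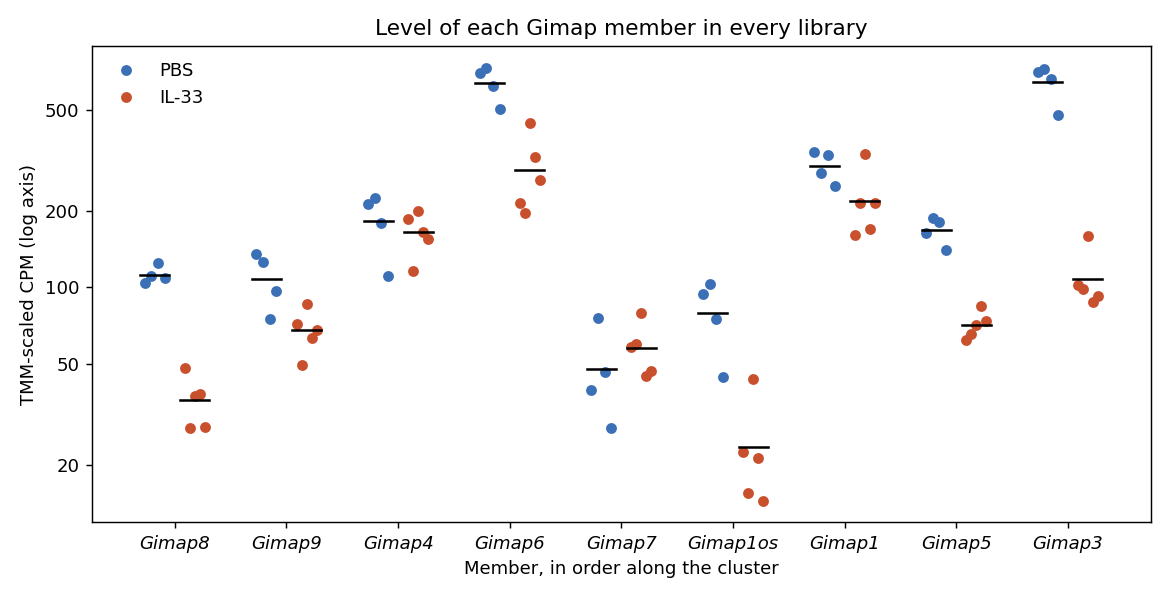
Level of each member in TMM-scaled CPM on a log axis, with members in order along the cluster; points are single libraries (4 PBS, 5 IL-33) and bars are group means. Points of the groups are apart for Gimap8, Gimap6, Gimap5 and Gimap3, all but touch for Gimap1os (43.4 and 44.4 CPM) and overlap for Gimap9, Gimap4, Gimap7 and Gimap1.

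Gimap3, known for a role in how mitochondrial DNA variants are sorted in blood cells, was at 705, 726, 662 and 478 CPM in PBS replicates 1 to 4. It was at 102, 98.1, 159.7, 87.3 and 92.5 CPM in IL-33 replicates 1 to 5. Every PBS library lay at least 319 CPM above every IL-33 library, the widest gap of any member. Means were 643 ± 113 CPM for PBS (SD, n = 4) and 108 ± 29.5 CPM for IL-33 (SD, n = 5), with a log2 change of -2.57 ± 0.20 (SE), or 5.95 times as high with PBS. Of the tested genes 2.67% had a lower log2 change, a share given for scale only because the members were chosen on this contrast.

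Gimap5, the lysosomal survival factor and closest relative of Gimap3, was at 163, 187, 180.4 and 140.3 CPM with PBS and at 62.3, 65.3, 71.0, 84.4 and 74.0 CPM with IL-33. It had the smallest spread with IL-33 of any member, with a coefficient of variation of 12.04%, and its groups were 55.9 CPM apart. The log2 change was -1.23 ± 0.13 (SE), between means of 168 ± 20.9 CPM for PBS (SD, n = 4) and 71.4 ± 8.60 CPM for IL-33 (SD, n = 5). The related pair thus differed in size of change. Counts of Gimap3 per count of Gimap5, a ratio that no library scaling alters, were 3.41 to 4.33 in the PBS libraries and 1.04 to 2.25 in the IL-33 libraries.

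Gimap6, the partner of the autophagy protein GABARAPL2, had nearly the CPM of Gimap3 with PBS. It was at 701, 734, 619 and 506 CPM with PBS and at 215, 196, 444, 325 and 264 CPM with IL-33. IL-33 replicate 3 came within 62.2 CPM of the lowest PBS library. Its log2 change was -1.15 ± 0.24 (SE), between means of 640 ± 101 CPM for PBS (SD, n = 4) and 289 ± 100.1 CPM for IL-33 (SD, n = 5). With PBS the counts of Gimap3 per count of Gimap6 lay between 0.945 and 1.07, and with IL-33 between 0.269 and 0.501, so that their counts were near equal in the first group and not in the second.

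Gimap8, the member with 3 GTPase domains, was at 104, 110.4, 125 and 108 CPM with PBS, the tightest PBS group of the 9 members (coefficient of variation 8.21%). With IL-33 it was at 48.2, 27.96, 37.3, 38.2 and 28.3 CPM. Its highest IL-33 library lay 55.5 CPM below its lowest PBS library. The log2 change was -1.64 ± 0.17 (SE), between means of 112 ± 9.19 CPM for PBS (SD, n = 4) and 36.0 ± 8.36 CPM for IL-33 (SD, n = 5).

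Gimap1 and its antisense partner gave unlike values. Gimap1, needed for the upkeep of mature T and B cells, was at 342, 282, 332 and 250.4 CPM with PBS and at 160.4, 214, 335, 170.0 and 215 CPM with IL-33. IL-33 replicate 3 lay among the PBS libraries and the other 4 IL-33 libraries lay below them. Its log2 change was -0.46 ± 0.21 (SE), between means of 301 ± 43.0 CPM for PBS (SD, n = 4) and 219 ± 69.6 CPM for IL-33 (SD, n = 5), and -0.67 without IL-33 replicate 3.

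Gimap1os was at 94.2, 103, 75.1 and 44.4 CPM with PBS and at 22.4, 15.5, 43.4, 21.3 and 14.5 CPM with IL-33. The groups were 0.939 CPM apart, the gap between PBS replicate 4 and IL-33 replicate 3. The log2 change was -1.75 ± 0.36 (SE), the largest standard error of any member, and reached -1.97 when PBS replicate 4 was left out and -2.10 when IL-33 replicate 3 was. Counts of Gimap1os per count of Gimap1 were 0.177 to 0.364 with PBS and 0.0672 to 0.140 with IL-33. How many of these counts came from the shared 1107 bases was not measured.

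For Gimap9, Gimap4 and Gimap7 the groups overlapped. Gimap9 was at 135, 125, 75.2 and 96.9 CPM with PBS and at 72.0, 49.6, 86.0, 63.3 and 67.8 CPM with IL-33, with a log2 change of -0.67 ± 0.20 (SE). Its overlap came from PBS replicate 3, which lay below IL-33 replicate 3. Gimap4, known for speeding the death of T cells once it is set in motion, was at 212, 224, 179 and 111 CPM and at 187, 116, 199.6, 165 and 155 CPM, with a log2 change of -0.14 ± 0.22 (SE). The lowest of all libraries for Gimap4 was PBS replicate 4, and its log2 change was -0.33 with that library left out and -0.02 with PBS replicate 2 left out.

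Gimap7, whose protein hydrolyses GTP as a dimer, was the one member with a change above 0. It was at 39.5, 76.1, 46.5 and 28.1 CPM with PBS and at 58.2, 60.0, 79.4, 44.7 and 47.0 CPM with IL-33, a log2 change of 0.28 ± 0.29 (SE). All IL-33 libraries but replicate 3 lay within the PBS range. The change was 0.09 without PBS replicate 4 and 0.61 without PBS replicate 2, so the size of this difference moved with single libraries.

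The make-up of the Gimap counts was not the same in the groups. Gimap3 gave 28.1% ± 0.721 (SD, n = 4) of the counts of the 9 members in PBS libraries but 10.4% ± 1.19 (SD, n = 5) in IL-33 libraries. Gimap4 gave 7.84% ± 1.10 and 16.1% ± 2.63, Gimap1 13.3% ± 1.61 and 21.04% ± 3.72, Gimap9 4.77% ± 1.03 and 6.59% ± 0.810, and Gimap7 2.04% ± 0.649 and 5.65% ± 1.06. The ranges of these 5 members did not overlap between the groups. Shares of a whole are tied to each other, so a lower share of Gimap3 by itself raises those of the others. In CPM the groups overlapped for Gimap4, Gimap1, Gimap9 and Gimap7. Gimap6 held 28.1% ± 0.774 and 27.4% ± 4.20, and Gimap5 7.41% ± 0.655 and 7.10% ± 1.39, with overlapping ranges. Ranges overlapped too for Gimap8 (5.02% ± 0.953 and 3.57% ± 1.02) and Gimap1os (3.39% ± 0.657 and 2.18% ± 0.564). These shares are taken within a library and do not depend on its depth or on counts outside the cluster.

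**Figure D2:**
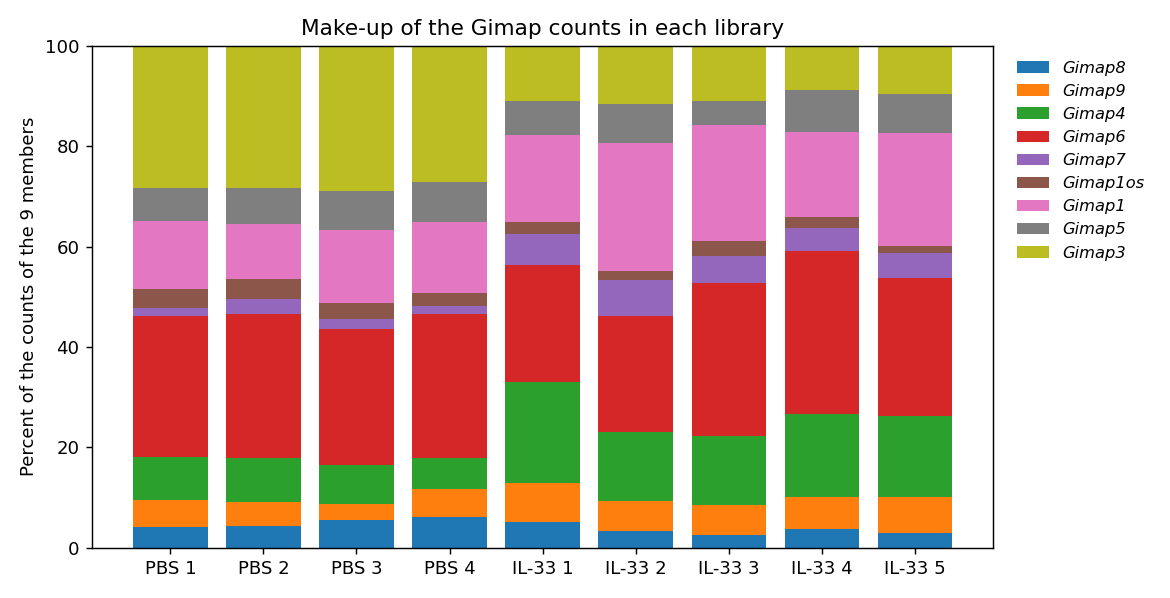
Percent of the summed counts of the 9 members that each member gave, 1 bar per library. The Gimap3 segment at the top spans 27.1% to 28.8% in the 4 PBS bars and 8.74% to 11.6% in the 5 IL-33 bars.

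Per kilobase of annotated exon, a scale on which genes can be compared, the order with PBS was Gimap3 (249 ± 43.8 CPM per kb, SD, n = 4), Gimap6 (183 ± 29.0), Gimap4 (98.9 ± 27.6), Gimap1 (98.1 ± 13.98), Gimap9 (65.9 ± 16.6), Gimap5 (40.4 ± 5.03), Gimap8 (30.3 ± 2.48), Gimap1os (25.5 ± 8.34) and Gimap7 (20.4 ± 8.81). Neighbours in this order had overlapping ranges except Gimap6 above Gimap4, Gimap9 above Gimap5 and Gimap5 above Gimap8. Gimap3 exceeded Gimap6 in each of the 4 PBS libraries although their ranges overlapped.

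With IL-33 the order was Gimap4 (89.6 ± 17.6 CPM per kb, SD, n = 5), Gimap6 (82.6 ± 28.6), Gimap1 (71.3 ± 22.7), Gimap3 (41.9 ± 11.4), Gimap9 (41.3 ± 8.06), Gimap7 (24.9 ± 5.93), Gimap5 (17.2 ± 2.07), Gimap8 (9.73 ± 2.26) and Gimap1os (7.56 ± 3.78). Gimap3 went from the first place to the fourth and Gimap7 from the last to the sixth. Gimap5 above Gimap8 was the one pair of neighbours without overlap. By plain CPM, with PBS the members stood between the percentiles 75.3 (Gimap7) and 98.6 (Gimap3) of the genes tested.

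The promoters of the members that differed most in their change, Gimap3 and Gimap7, and that of Gimap5, the near relative of Gimap3, are shown as the 250 bases before the RefSeq start (GRCm38.p6), 5′ to 3′ on the gene's strand, with matches to the searched motifs in capitals.
Gimap3 (chr6:48770852-48771101, minus strand): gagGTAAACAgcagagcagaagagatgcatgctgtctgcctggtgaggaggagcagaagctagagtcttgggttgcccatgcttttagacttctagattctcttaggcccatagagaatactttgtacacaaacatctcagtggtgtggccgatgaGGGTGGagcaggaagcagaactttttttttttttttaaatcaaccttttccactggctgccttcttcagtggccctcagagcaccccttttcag
Gimap5 (chr6:48745947-48746196, plus strand): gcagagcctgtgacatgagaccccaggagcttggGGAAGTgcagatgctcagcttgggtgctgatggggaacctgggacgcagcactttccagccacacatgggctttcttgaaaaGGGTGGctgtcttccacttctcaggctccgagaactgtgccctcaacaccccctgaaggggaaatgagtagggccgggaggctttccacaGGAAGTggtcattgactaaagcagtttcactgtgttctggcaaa
Gimap7 (chr6:48718371-48718620, plus strand): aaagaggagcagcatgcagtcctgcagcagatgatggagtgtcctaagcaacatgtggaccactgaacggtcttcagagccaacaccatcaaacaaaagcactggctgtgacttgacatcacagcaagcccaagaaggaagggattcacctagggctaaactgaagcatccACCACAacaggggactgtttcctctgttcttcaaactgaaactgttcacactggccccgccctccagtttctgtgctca

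RefSeq promoters were found for the 8 coding members, with 2 starts for Gimap8. They were searched on both strands for the core motifs of RUNX factors (TGTGGT), of ETS factors (GGAAGT), of GATA factors (AGATAA), of the KLF family (CCACCC) and of FOXO factors (GTAAACA), and for the box named after its letters (TATAAA). Most often met was CCACCC, found for 5 of the 8 genes (Gimap3, Gimap4, Gimap5, Gimap8 and Gimap9). Counted by promoter, it was in 5 of the 9 of the members and in 28.1% of all 32851. TGTGGT was found for Gimap1, Gimap4 and Gimap7 (14.05% of all promoters) and GGAAGT for Gimap5 and Gimap6 (19.7%). Among the members, GTAAACA matched Gimap3 alone (3.17% of all promoters). TATAAA matched Gimap6 alone (12.4%), and no member held AGATAA (9.99%). Gimap3 and Gimap5 had CCACCC in common, 94 and 134 bases before their starts on the opposite strand, while the Gimap7 promoter had TGTGGT 79 bases before its start. No motif was held by every member below 0 and lacked by Gimap7.

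Genes beside the cluster were examined next, from 500000 bases before Gimap8 to 500000 bases after Gimap3. Of 18 such genes 13 were tested, and by edgeR's quasi-likelihood test (adjusted p below 0.05) 4 fell and 1 rose with IL-33. Over all genes tested 11.6% fell and 13.7% rose. These shares are given for scale only, because the list was chosen with earlier results of these data known. The median log2 change of the neighbours was -0.67. On the far side of Gimap3 the nearest tested gene was Tmem176b, 62967 bases away, a membrane protein gene paired head to head with Tmem176a. Tmem176b was at 1308, 1003, 1148 and 936 CPM in the PBS libraries and 77.3 to 144 CPM in the IL-33 libraries, so that its log2 change was -3.28 ± 0.19 (SE, adjusted p = 1.2e-05 in edgeR). Tmem176a fell too, with a log2 change of -2.87 (adjusted p = 4.7e-05 in edgeR). Neither gene overlapped between the groups.

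On the other side AI854703 lay nearest, 13545 bases before Gimap8, and fell (log2 change -1.34, edgeR adjusted p = 0.0477) with overlapping groups. That call was lost without any 1 of the libraries other than IL-33 replicate 1, with library size alone and with no filter on low counts. Lrrc61, 76512 bases before Gimap8, rose, with means of 1.55 ± 0.691 CPM for PBS (SD, n = 4) and 6.36 ± 1.64 CPM for IL-33 (SD, n = 5) (edgeR adjusted p = 0.0105). Its change thus ran against those of Gimap8 and AI854703. Tra2a, a splicing factor 473073 bases after Gimap3, fell with a log2 change of -0.67 (adjusted p = 0.0253 in edgeR). Tra2a was not called with either PBS replicate 1, PBS replicate 2 or any of IL-33 replicates 2 to 4 left out. Nor was it called with library size alone or with the replicate number as a block. The count of neighbours that fell was 2 when PBS replicate 1, PBS replicate 2, IL-33 replicate 2 or IL-33 replicate 4 was omitted, and 2 rose without PBS replicate 2.

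**Figure D3:**
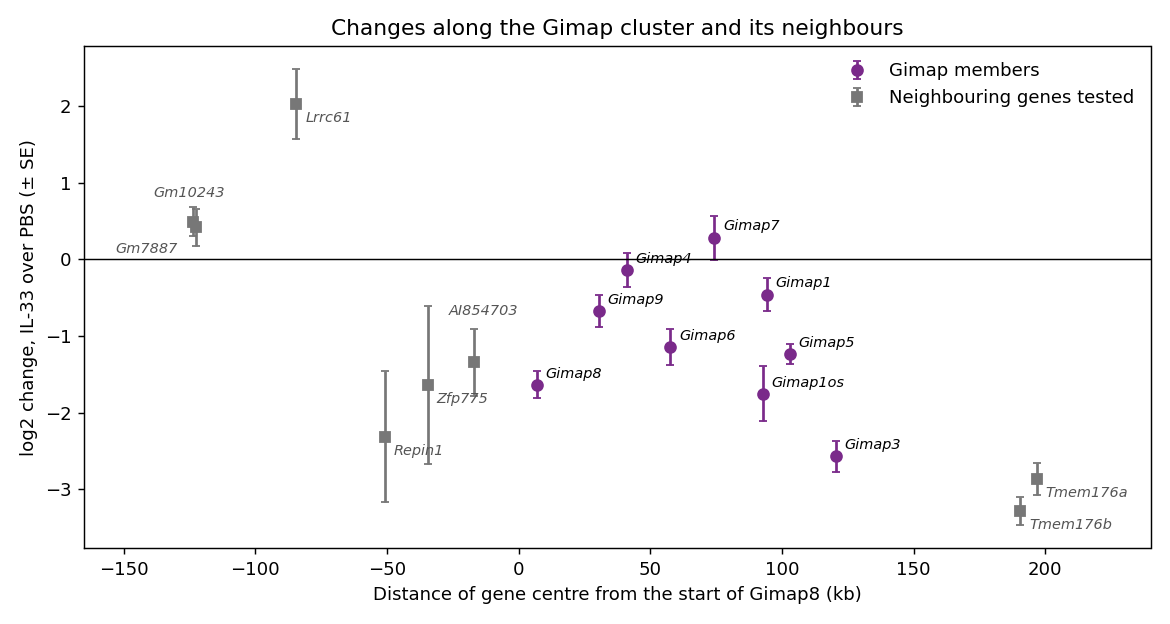
Log2 change (IL-33 over PBS) with its SE against the distance of each gene's centre from the start of Gimap8, in kb, for the 9 members (circles) and the tested neighbours within 200 kb (squares). Changes show no steady course along the cluster, with -1.64 at Gimap8, 0.28 at Gimap7 in the middle and -2.57 at Gimap3, the member nearest to Tmem176b at -3.28.

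Genes known for keeping lymphocytes quiescent, the state in which Gimap genes are best known, were taken as a list of 19, of which 18 were tested. By edgeR's quasi-likelihood test 7 fell and 2 rose (11.6% and 13.7% of all genes, 25.2% in both directions), with a median log2 change of -0.97. This list and those below were chosen with earlier results of these data known, so the shares of all genes are for scale only. Btg2, an antiproliferative factor, fell, with means of 4190 ± 225 CPM for PBS (SD, n = 4) and 777 ± 106 CPM for IL-33 (SD, n = 5) and a fitted log2 change of -2.43 ± 0.11 (SE, edgeR adjusted p = 6.8e-06). Also lower in log2 terms were Il7r (-1.28), the receptor chain for the survival cytokine IL-7, and Bach2 (-1.46), a repressor that guards naive lymphocytes, with adjusted p from edgeR of 0.0031 and 0.0038. The 2 that rose were Slfn2 (0.95) and Tcf7 (0.70).

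Genes linked to GIMAP5 and GIMAP6 in earlier work, those of autophagy, GSK3 signalling and the BCL2 family, were examined as a list of 17. By edgeR's quasi-likelihood test 5 of the 17 fell and 3 rose (11.6% and 13.7% of all genes), with a median log2 change of -0.09. Ctnnb1, the beta-catenin gene, fell, with means of 203 ± 25.5 CPM for PBS (SD, n = 4) and 76.9 ± 8.82 CPM for IL-33 (SD, n = 5) and a fitted log2 change of -1.40 ± 0.13 (SE, edgeR adjusted p = 1.1e-04). Bcl2, the survival protein, fell (log2 change -1.89, edgeR adjusted p = 1.6e-04), and so did Mcl1, another one (-0.68, edgeR adjusted p = 0.0055). Mcl1 was not called with library size alone or with the replicate number as a block. Bak1, a pore-forming death protein, rose with a log2 change of 2.44 (adjusted p = 0.0049 in edgeR). The BCL2 family did not move in one sense. Bcl2l1, a survival gene, rose (0.79, edgeR adjusted p = 0.0111), as did the death gene Bax (0.51, edgeR adjusted p = 0.0096). Bcl2l11, a death gene, fell (-1.57, edgeR adjusted p = 0.0109). With the replicate number as a block, 2 genes of the list fell and 1 rose.

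The direct partner of Gimap6, Gabarapl2, was at 106 ± 6.94 CPM (SD, n = 4) and 96.6 ± 9.64 CPM (SD, n = 5) and did not pass the test (edgeR adjusted p = 0.415); it was named after its values were seen. None of the 8 autophagy genes listed (Gabarap, Gabarapl1, Gabarapl2, Map1lc3a, Map1lc3b, Sqstm1, Atg5 and Atg7) was called by edgeR, against 25.2% of all genes. These 8 were not planned as a set apart from the partner list. For so few genes 0 calls is not far from that share, so nothing is concluded about autophagy genes. With library size alone 3 genes of the list fell.

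The interferon-inducible GTPases, other large GTPase families of mouse immune cells, had log2 changes below 0 in all 16 genes tested. The list held 19 genes and, like the others, was chosen with earlier results of these data known. Of the 16 tested, 8 fell by edgeR's quasi-likelihood test, against 11.6% of all genes, and 0 rose, against 13.7% (0 also at an unadjusted p below 0.05; 0 rose with limma voom and with DESeq2). The median log2 change was -1.42. Gvin1, a very large member, fell, with means of 240 ± 47.4 CPM for PBS (SD, n = 4) and 18.2 ± 4.14 CPM for IL-33 (SD, n = 5) and a fitted log2 change of -3.72 ± 0.21 (SE, edgeR adjusted p = 1.2e-05). The log2 change was -2.38 for Tgtp1, -2.26 for Tgtp2 and -1.73 for Gbp6, with adjusted p from edgeR of 0.0050, 0.0106 and 0.0080; Tgtp1 and Tgtp2 are near-identical copies between which reads may be shared. With library size alone 5 genes of this list fell.

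**Figure D4:**
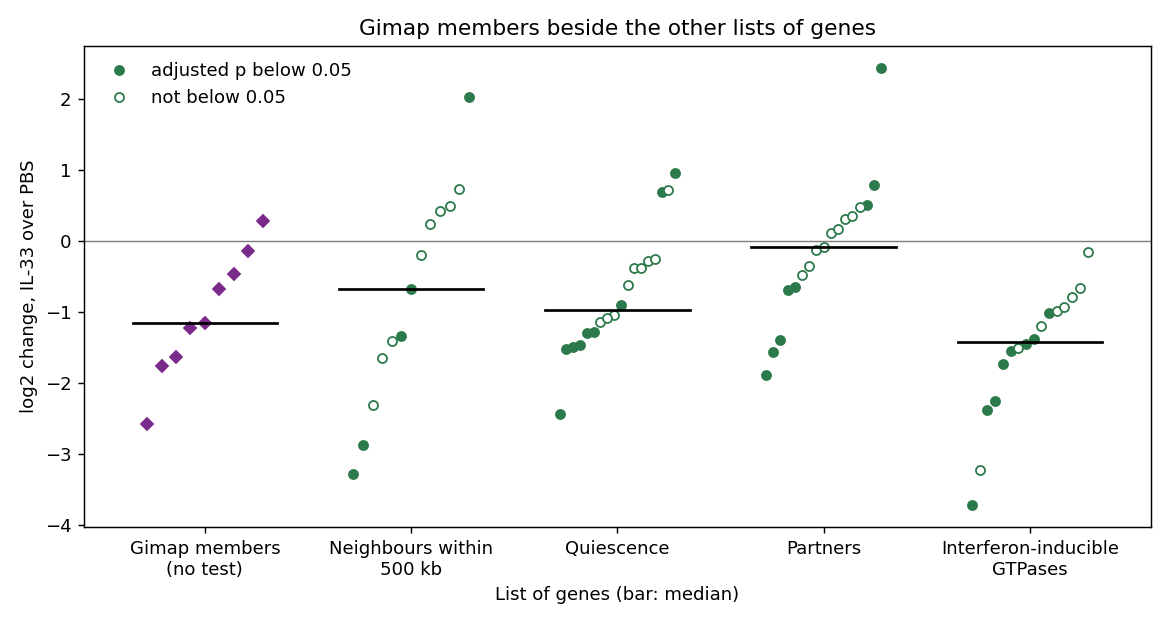
Log2 change (IL-33 over PBS) of each gene in 5 groups, with the median as a bar; filled circles have an adjusted p below 0.05 and open circles do not, and the members (diamonds) carry no test. Medians were -1.15 for the members, -0.67 for the neighbours, -0.97 for quiescence, -0.09 for the partners and -1.42 for the interferon-inducible GTPases.

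Gimap genes are also expressed by T cells, B cells and endothelium, so the markers of these cells were measured in the same libraries. Their shares are of all counts of a library, without TMM scaling. They thus do not allow for the acinar RNA of PBS replicate 4 (31.6% of its counts). The T cell list (13 of 15 genes with counts) took 0.0755% to 0.191% of counts with PBS and 0.128% to 0.163% with IL-33 (exact permutation test, two-sided, adjusted p = 0.841 over 8 lists). The 0.0755% was that of PBS replicate 4. The other PBS libraries were at 0.170% to 0.191%, above every IL-33 library. Its most abundant genes were Lat, Trbc2 and Trbc1, at 423 ± 66.1, 391 ± 29.7 and 327 ± 41.3 CPM with PBS (SD, n = 4) and 382 ± 59.0, 389.8 ± 46.4 and 224 ± 26.3 CPM with IL-33 (SD, n = 5). Trbc1 fell (edgeR adjusted p = 0.0107, a call lost with library size alone), as did Lck, a kinase that innate lymphocytes also express, from 153 ± 30.7 to 78.8 ± 14.9 CPM (edgeR adjusted p = 0.0047, also lost with library size alone). Of the genes of the T cell receptor complex, Cd3g was at 255 ± 32.2 CPM with PBS and 281 ± 47.6 CPM with IL-33, whereas 3 that define T cells were near 0: Cd3e was at 2.59 ± 2.87 and 5.33 ± 3.18 CPM, Cd3d at 0.432 ± 0.830 and 2.83 ± 1.02 CPM, and Trac at 1.16 ± 1.05 and 2.47 ± 0.796 CPM. None of these 4 genes passed the test. Cd4 and Cd8a were not analysed here.

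The B cell list (7 of 8 genes) took 0.0225% to 0.0613% and 0.0189% to 0.0418% (exact permutation adjusted p = 0.0847), most of it from Ighm. Its mean share was 0.0493% with PBS and 0.0244% with IL-33. The overlap lay between PBS replicate 4, whose share is not scaled for its acinar RNA, and IL-33 replicate 3. The other PBS libraries were at 0.0523% to 0.0613%. Ighm, the IgM heavy chain, fell, with means of 478 ± 64.1 CPM for PBS (SD, n = 4) and 156 ± 84.1 CPM for IL-33 (SD, n = 5), while Cd79b rose from 16.4 ± 10.3 to 74.8 ± 15.9 CPM (edgeR adjusted p = 0.0048 and 0.0146). Ebf1 was at 1.26 ± 1.51 and 0.329 ± 0.544 CPM. Ms4a1, a defining B cell gene, was at 0 CPM in all PBS libraries and in all but 1 of the IL-33 libraries (0.791 CPM).

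The endothelial list (9 of 9 genes) took 0.00623% to 0.0198% with PBS and 0.00366% to 0.00895% with IL-33 (exact permutation adjusted p = 0.0847). Its mean share was the lower one with IL-33, as was the summed level of the members. The receptor gene Kdr was at 4.47, 1.45, 14.03 and 51.1 CPM in PBS replicates 1 to 4 and at 0 to 1.21 CPM with IL-33 (edgeR adjusted p = 0.0177, and 0.0617 without PBS replicate 4). Pecam1, which some leukocytes share, was at 63.2 ± 22.7 and 32.3 ± 13.2 CPM, a difference that missed the threshold (edgeR adjusted p = 0.0655) and was called without PBS replicate 2 or without IL-33 replicate 3. Plvap was at 1.73, 4.10, 40.6 and 128 CPM in PBS replicates 1 to 4 and at 1.77 to 20.2 CPM with IL-33, with a log2 change of -2.33, and -0.85 without PBS replicate 4. Egfl7 was at 6.80, 8.20, 9.68 and 21.8 CPM and at 3.46 to 11.1 CPM, with a log2 change of -0.86, and -0.38 without PBS replicate 4. PBS replicate 4 was thus the highest library for Kdr, Plvap and Egfl7. Over PBS replicates 1 to 4 the endothelial share was 0.0121%, 0.00623%, 0.0170% and 0.0198%. The summed level of the members there was 2495, 2567, 2295 and 1764 CPM. Within PBS, replicate 4 thus had the highest endothelial share and the lowest Gimap sum, and replicate 2 the reverse. The part of endothelial, B cell or T cell RNA in the Gimap values was not tested.

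Of the 8 lists, only the markers of red cells had ranges without overlap. They took 0.0142% to 0.0343% of counts with PBS and 0.0424% to 0.365% with IL-33. The exact permutation adjusted p was 0.0847, above the threshold, the unadjusted 0.0159 being the smallest that 4 against 5 libraries can give. IL-33 replicate 3 held the most, 0.365%, and also the highest summed Gimap level among the IL-33 libraries. The part of red cell RNA in the Gimap values was not tested. By the same exact permutation test the adjusted p was 0.254 for the ILC2 list and for the NK and ILC1 list, and 0.841 for the acinar and the myeloid list.

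The genes whose pattern over the 9 libraries was most like the mean log2 level of the members were Uvssa (Pearson r 0.988), Taok1 (0.988), Dock10 (0.988), Runx1t1 (0.987) and Irf2 (0.987), out of 8853 genes compared. They were ranked on these libraries, which fall into 2 groups, so the values describe likeness only. Uvssa, a factor of transcription-coupled DNA repair, went from 47.0 ± 18.7 to 8.67 ± 3.73 CPM and Dock10, a guanine-nucleotide exchange factor, from 299.8 ± 83.7 to 90.8 ± 18.7 CPM. Taok1, a kinase, went from 105 ± 21.5 to 40.2 ± 10.9 CPM and Runx1t1, a transcriptional corepressor, from 106 ± 36.0 to 30.4 ± 12.3 CPM. Irf2, an interferon regulatory factor, went from 101 ± 16.9 to 55.7 ± 10.2 CPM.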

How the data were processed

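The authors deposited whole-number counts per Ensembl gene for 9 libraries. A second deposited table holds the same counts divided by 1 factor per library and was not used. The tools named by the submitters' processing notes are STAR 2.7.7a, Salmon 1.6.0, Trimmomatic 0.39, FastQC 0.11.9, Picard and DESeq2, with the build GRCm38.p6. Their roles, and whether the counts are rounded estimates, were not stated. Libraries were made from 5 to 15 ng of RNA and read as pairs of 150 nt, per the labels' protocols.

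Symbols, positions and exon lengths came from GENCODE M21 (20571 of 20732 genes matched, 99.2%), and promoters from RefSeq on GRCm38.p6. The test of the counts was the robust quasi-likelihood F-test of edgeR 4.0.16 (R 4.3.3, two-sided) after TMM scaling and filterByExpr at a minimum count of 10, with Benjamini-Hochberg adjustment over 14405 genes and a threshold of 0.05. The SE is the log2 change divided by the square root of F. Shares of counts were compared by exact permutation over 126 splits (SciPy 1.17.1, two-sided), adjusted over 8 lists. Libraries of a group never agreed within sampling noise (chi-square over its degrees of freedom at least 52.6). The edgeR fit was also run on simulated counts with known changes and otherwise the same mean profile in every library. That simulation did not imitate the acinar RNA of PBS replicate 4 and cannot speak to its effect.

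Members and lists were chosen with earlier results of these data known. All 9 members are named. Others named are the 4 genes of each list with the smallest adjusted p, the nearest tested gene on each side, the 3 most abundant T cell, B cell and endothelial markers, 4 ILC2 markers and the 5 genes most like the members (at least 5 CPM, gene models left out). Further genes were chosen after their values were seen. Some genes of the lists are not reported here by name. Alternatives were DESeq2 1.42.0, limma 3.58.1 voom with sample weights, RLE or no scaling, no filter or at least 5 CPM in at least 4 libraries, a replicate block, leaving out each library, and 200000 bases for the neighbours.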

Additional observations from a re-analysis of the deposited data

Results flagged for a closer look

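In IL-33 replicate 3, 3 values stood apart from the other IL-33 libraries by Dixon's criterion, which chance meets in about 1 of 20 groups; 20 sets of values were examined, of which those of the members and their sum are not independent. Gimap3 was at 159.7 CPM against 87.3 to 102 CPM in the other 4. Gimap1os was at 43.4 CPM against 14.5 to 22.4 CPM. The sum of the members was 1456 CPM against 842 to 999 CPM. The same library had the highest Gata3 level of all 9 (6803 CPM, against 2988 to 5125 CPM in the others), the highest Ighm level with IL-33 (306 CPM, against 105 to 131 CPM) and the largest red cell share (0.365%). Without it the log2 changes of Gimap3 and Gimap1os were -2.76 and -2.10.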

How the results depend on the processing

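The log2 change of every member kept its sign under all 16 alternatives and moved by less than the spread between libraries; the median over members lay between -1.27 and -1.04, and Gimap7 between 0.09 and 0.61. With library size alone the median log2 change over all genes shifted by 0.13, and 1976 genes were called (1332 higher, 644 lower, 67.4% higher) in place of 3633 (1967 higher, 1666 lower, 54.1% higher). Then 3 partners, 5 interferon-inducible GTPases and 2 neighbours fell. With the replicate number as a block 1457 genes were called; 4 quiescence genes, 2 partners, 3 interferon-inducible GTPases and 2 neighbours fell, and 1 partner and 0 neighbours rose. Same-numbered libraries did not deviate together over the genes tested (correlations -0.0564 to 0.0670). This gave no sign of pairing by number but cannot exclude it. With limma voom 2 neighbours rose. When single libraries were left out, 2 to 4 neighbours fell and 1 to 2 rose. The difference in T cell share ranged from -0.0341 to 0.0045 percentage points, the acinar one from -8.16 to 2.33 and the myeloid one from -8.18e-05 to 0.00104, each with both signs. The cause of these moves was not tested.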
